A study of Mus musculus with 84 samples.

Results

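The genes described here encode ligands, receptors and antagonists of the TGF-β and activin pathway, and they were followed through the reprogramming of mouse embryonic fibroblasts (MEFs) with and without a constitutively active SMAD3. They comprised the ligand genes Tgfb1, Tgfb2, Tgfb3 and Inhba, the receptor and coreceptor genes Tgfbr1, Tgfbr2, Tgfbr3 and Eng, and the antagonist genes Fst and Bambi. They were taken by symbol from the table of raw read counts, where these 10 of 18909 genes each had a row. RNA had been sequenced by STRT, which reads tags at transcript 5′ ends, in 10 groups of 3 biological replicates. MEFs were wild-type cells of the 129 strain background, grown in serum-containing medium to which FGF2 (5 ng/ml) and heparin (1 ng/ml) were added. ESCs were of the TNG-MKOS line, which carries a Nanog-GFP reporter in place of 1 Nanog allele and a cassette (MKOS) from which doxycycline induces c-Myc, Klf4, Oct4 and Sox2 together with mOrange, and were grown with 100 U/ml LIF. Reprogramming cells were MEFs from chimeric embryos made with that same line, of both sexes, plated as a minority among wild-type MEFs. They were infected with retrovirus carrying either a blue fluorescent protein (BFP; control, Cont) or Smad3CA (+Sm3CA), whose C-terminal serines are replaced by acidic residues so that it acts without receptor phosphorylation. Both series received ESC medium with LIF, vitamin C and 300 ng/ml doxycycline and were sorted for mOrange after 3, 6, 8 or 10 days. Both vectors are expressed from the promoter of the pMXs retrovirus, and the number of cells per sample and the dose of vitamin C differ between the descriptions of the study.

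TGF-β ligands bind the type II receptor TGFBR2, which then phosphorylates the type I receptor TGFBR1 (ALK5). TGFBR1 phosphorylates the C terminus of SMAD2 and SMAD3, which enter the nucleus with SMAD4. Activin A, a dimer of the βA subunit encoded by Inhba, reaches the same SMADs through activin receptors, and follistatin (Fst) binds and neutralises it outside the cell. In fibroblasts the pathway is known for inducing extracellular matrix and contractile genes and for opposing the epithelial transition that accompanies reprogramming, while in pluripotent cells SMAD2 and SMAD3 are mostly engaged by Nodal and activin.

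Summing the 84 wells by replicate (3 wells each, or 2 for day 10) left 30 libraries with totals between 1008596 and 2296059 reads (median 1602511). These are reads and not molecules. The intervals and bounds given below treat reads summed over a group as independent counts. They leave out the spread between libraries and may be too narrow. Levels are given as CPM, the count of a gene scaled to a common library total, after TMM scaling, and because reads are counted at 5′ ends with differing capture, levels are compared between groups and not between genes. Markers fitted the labels of the 2 end points, with 19140 to 34113 summed CPM of 8 pluripotency genes in ESCs against 5.47 to 7.59 in MEFs, and 2791 to 3800 summed CPM of 12 fibroblast genes in MEFs against 4.24 to 9.16 in ESCs, where Col1a2, Col3a1 and Lum were at 0. MEFs also held 290 to 1187 summed CPM of macrophage genes. Smad3 counts, which include the vector, stood at 89.7 ± 33.4 (SD, n = 3), 42.6 ± 17.1, 46.9 ± 12.1 and 28.0 ± 5.11 CPM on days 3, 6, 8 and 10 in +Sm3CA and at 5.53 to 13.5 CPM in the 4 control means. The library of replicate 1 of Cont day 8 held 1088 summed CPM of oligodendrocyte and Schwann cell genes against 134 and 141 in its group, and replicate 1 of +Sm3CA day 10 held 430.2 against 36.3 and 16.6. Calls that rest on these libraries are also given without them. In bulk samples such as these, fewer cells of a type and less RNA per cell cannot be told apart.

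The sequences just upstream of the annotated start sites are shown first, for the ligand genes Inhba and Tgfb2 and the receptor gene Tgfbr2, which were lower in control cells of day 3 than in MEFs, and for the receptor gene Tgfbr1, which was not called in any comparison. RefSeq start sites on GRCm38.p6 were found for 6 of the 10 genes, and each sequence covers the 250 bases before the start, 5′ to 3′ on the gene's strand. Capitals mark matches to 4 motifs on either strand, and no matches overlapped. The first is the TATA box, searched as TATAAA. The second is the binding site of the factor NF-Y, searched as CCAAT. The third is the GC box, bound by factors such as SP1 and searched as GGGCGG. The last is the SMAD-binding letters CAGACA.
Inhba (chr13:16011601-16011850, plus strand): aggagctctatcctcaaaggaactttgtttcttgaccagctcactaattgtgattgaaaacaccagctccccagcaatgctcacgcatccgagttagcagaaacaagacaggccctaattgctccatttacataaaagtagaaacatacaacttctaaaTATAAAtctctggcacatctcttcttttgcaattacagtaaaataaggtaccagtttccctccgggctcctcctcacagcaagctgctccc
Tgfb2 (chr1:186705990-186706239, minus strand): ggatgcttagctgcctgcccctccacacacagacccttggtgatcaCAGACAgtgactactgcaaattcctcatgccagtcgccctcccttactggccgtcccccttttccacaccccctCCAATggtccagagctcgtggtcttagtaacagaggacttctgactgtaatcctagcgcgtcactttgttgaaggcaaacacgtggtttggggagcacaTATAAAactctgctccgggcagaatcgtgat
Tgfbr2 (chr9:116175364-116175613, minus strand): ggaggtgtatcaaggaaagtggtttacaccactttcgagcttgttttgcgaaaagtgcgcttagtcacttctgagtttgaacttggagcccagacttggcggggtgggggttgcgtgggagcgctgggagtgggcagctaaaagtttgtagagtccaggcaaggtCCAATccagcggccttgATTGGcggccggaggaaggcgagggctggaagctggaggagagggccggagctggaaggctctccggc
Tgfbr1 (chr4:47352972-47353221, plus strand): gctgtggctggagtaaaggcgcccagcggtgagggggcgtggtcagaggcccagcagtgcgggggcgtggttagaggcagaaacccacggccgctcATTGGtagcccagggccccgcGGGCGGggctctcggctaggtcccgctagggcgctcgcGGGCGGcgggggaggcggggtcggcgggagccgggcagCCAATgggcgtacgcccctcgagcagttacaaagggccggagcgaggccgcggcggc
Inhba and Tgfb2 both held TATAAA, 91 to 86 bases and 31 to 26 bases before the start, a motif found in 12.4% of 32841 such windows of the genome's genes. Tgfbr2 and the Tgfbr1 window shown held no TATAAA but 2 CCAAT matches each, a motif found in 33.9% of windows, and Tgfbr1 also held 2 GC boxes, found in 32.7%. RefSeq gives Tgfbr1 a second start, and the 250 bases before it (chr4:47385966-47386215, plus strand, not shown) held 52.8% G and C, 1 CAGACA and none of the other motifs. CAGACA occurred once in the Tgfb2 window and in 17.1% of all windows. The AP-1 letters TGANTCA (6.75% of windows), the cyclic AMP response element TGACGTCA (1.55%) and the palindromic SMAD site GTCTAGAC (0.167%) had no match in the 4 windows, which says only that these letters are absent from them. G and C made up 43.2% of the Inhba window, 53.6% of Tgfb2, 58.4% of Tgfbr2 and 74.8% of Tgfbr1, against a median of 52.4% over all windows.

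Inhba encodes the βA subunit of activin and was high in MEFs and low in reprogramming cells. Its GRCm38 position is chromosome 13, 16011851 to 16031621, plus strand. In MEFs its libraries held 369, 323 and 477 CPM, and in ESCs none of the 3 libraries had a read. Control cells held 12.005, 31.1 and 17.1 CPM on day 3, 7.49, 10.3 and 3.59 on day 6, 14.5, 9.24 and 14.8 on day 8, and 5.79, 10.9 and 24.8 on day 10. All control libraries lay below the MEF range. Those of day 3 lay above those of day 6, and every other pair of control days overlapped. In +Sm3CA cells the libraries held 35.0, 41.0 and 30.9 CPM on day 3, 0.580, 2.13 and 11.9 on day 6, 4.62, 0 and 1.64 on day 8, and 1.88, 0.740 and 0.876 on day 10. The day 3 libraries of +Sm3CA were the highest of the reprogramming cells apart from 1 Cont day 3 library that fell among them, and those of day 10 rested on 2, 1 and 1 reads. As a share of the MEF mean of 389.7 ± 78.8 CPM (SD, n = 3), Inhba stood at 5.15% in Cont day 3 and 3.55% in Cont day 10, and at 9.15% in +Sm3CA day 3 and 0.299% in +Sm3CA day 10.

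Tgfb2 and Tgfb3, which encode the TGF-β2 and TGF-β3 ligands, were likewise highest in MEFs and without a read in ESCs. Tgfb2 (chromosome 1, 186622792 to 186705989, minus strand) had 77.9, 72.3 and 111 CPM in MEFs, and its group means in reprogramming cells lay between 5.49 ± 3.50 and 13.2 ± 7.07 (SD, n = 3 each). Tgfb3 (chromosome 12, 86056745 to 86079041, minus strand) had 71.8, 54.9 and 100.3 CPM in MEFs and means of 2.38 ± 1.50 to 9.83 ± 4.88 in reprogramming cells. In the order of group means, the MEF libraries of both genes lay above those of the next group and the ESC libraries below those of the group before, while all neighbours among the 8 reprogramming groups overlapped. The start of Tgfb2 overlaps a gene model on the other strand, as do those of Tgfb3, Inhba and Fst, but none of those models has a row in the table. Ttll5 and Fpgs, which lie on the other strand of Tgfb3 and Eng, do have a row, and whether strand was used in counting is not given in the sources used here. Tgfb1, the ligand gene on chromosome 7 (25687002 to 25705077, plus strand), had 2 reads in all, 1 in a Cont day 3 library and 1 in a Cont day 8 library. The other 28 libraries had none, which over the 3 libraries of a group allows up to 0.451 to 0.843 CPM. Its upstream window was 75.2% G and C and held 5 GC boxes, and whether its 5′ ends were captured was not tested.

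**Figure D1:**
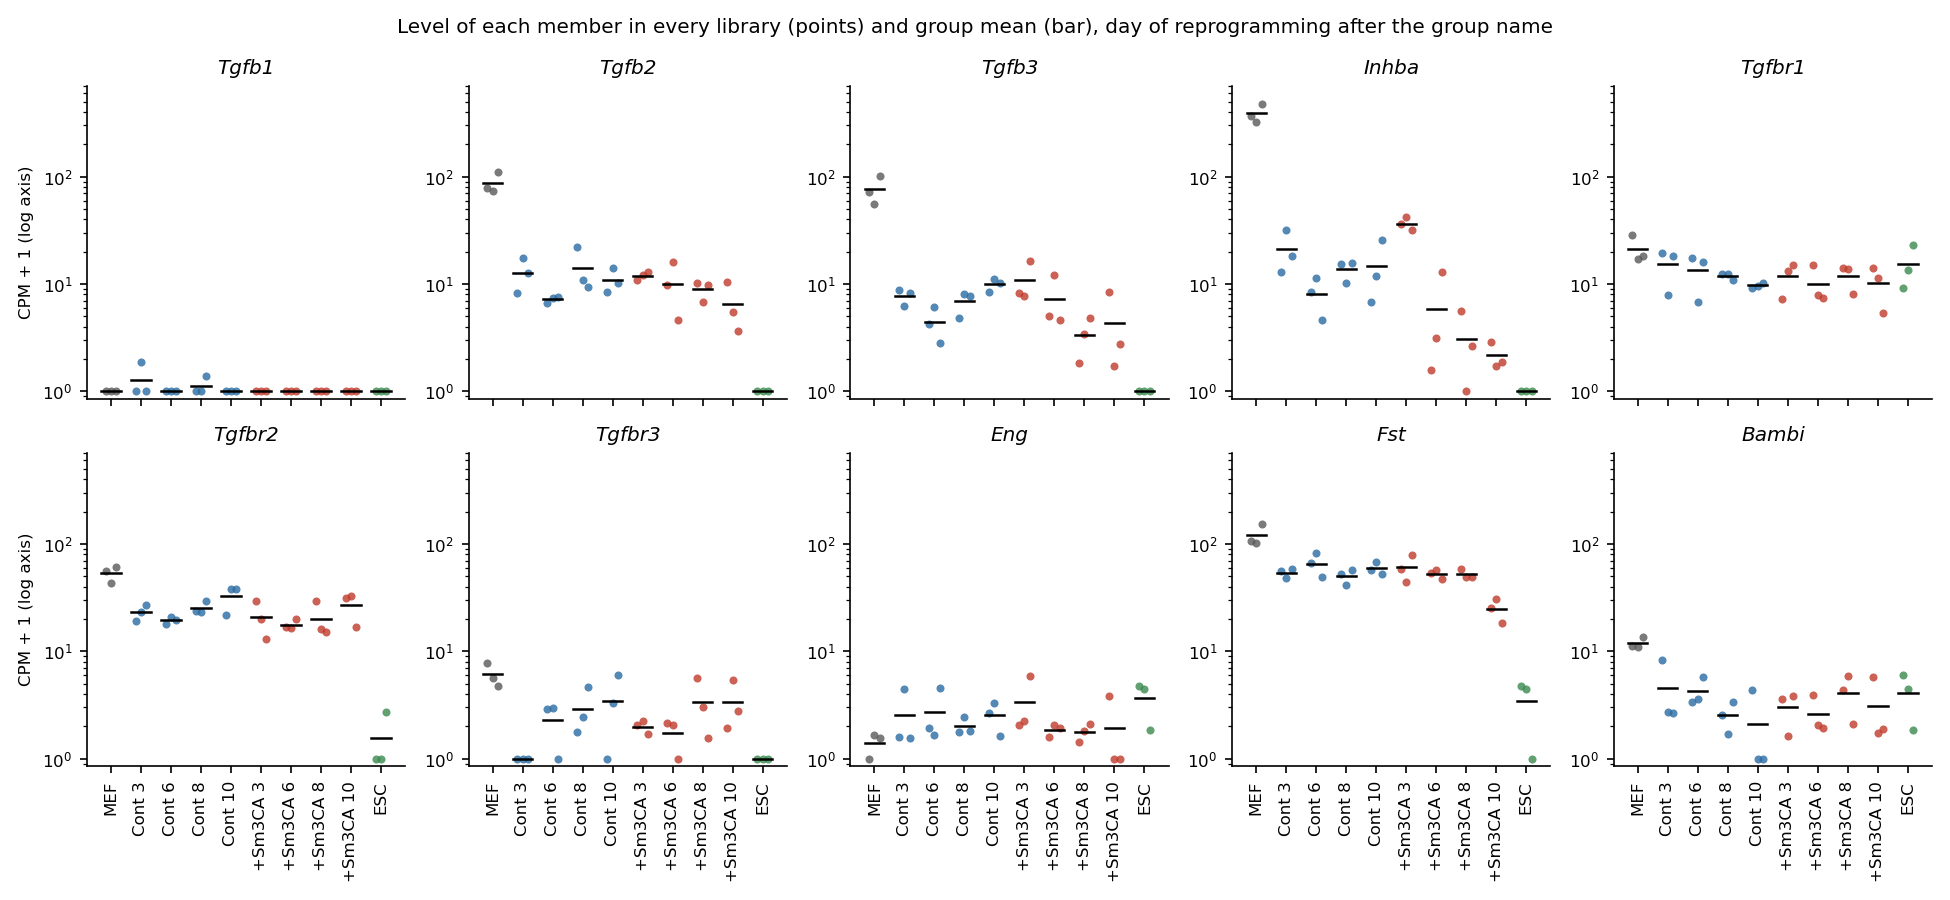
Level of each of the 10 genes as CPM + 1 on a log axis (y) in the 3 libraries of each group (points) with the group mean (black bar), for MEFs (grey), control cells (Cont, blue), +Sm3CA cells (red) and ESCs (green), with the day after the group name (x). Inhba, Tgfb2 and Tgfb3 start high in MEFs and end at 0 in ESCs, Tgfbr1 overlaps between neighbouring groups in the order of its means, and Tgfb1 is at 0 in 28 of the 30 libraries.

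The signalling receptors followed different courses from each other. Tgfbr2, the type II receptor gene on chromosome 9 (116084293 to 116175360, minus strand), had 54.7, 42.2 and 59.7 CPM in MEFs, and its libraries ranged from 16.8 to 37.2 CPM in control and from 11.9 to 31.8 CPM in +Sm3CA cells. ESCs held 0, 0 and 1.70 CPM. The MEF libraries lay above, and the ESC libraries below, all of those in between. Tgfbr1, the type I receptor gene on chromosome 4 (47353222 to 47414931, plus strand), had 27.3, 16.1 and 17.4 CPM in MEFs and 8.18, 12.6 and 22.0 CPM in ESCs. Its means in reprogramming cells were 8.70 ± 0.535 to 14.2 ± 6.37 CPM, and every neighbouring pair of groups in the order of its means overlapped.

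Both coreceptor genes were near the limit of detection. Tgfbr3, which encodes betaglycan, a coreceptor that presents TGF-β2 to the signalling receptors (chromosome 5, 107106570 to 107289629, minus strand), had 89 reads in all. It had 6.84, 4.68 and 3.80 CPM in MEFs, no read in Cont day 3 or ESCs, and at most 11 reads in a library elsewhere. With 24 reads in MEFs against 0, it was at least 7.72-fold lower in Cont day 3 and at least 6.07-fold lower in ESCs, where 3 reads over the group set the bound. Eng, which encodes endoglin, a coreceptor best known from endothelial cells (chromosome 2, 32646595 to 32682669, plus strand), had 61 reads in all and at most 7 in any library. It had 0, 1 and 1 reads in MEFs and 6, 3 and 1 in ESCs. The 7 endothelial markers summed to 12.04 to 13.7 CPM in MEFs, with Cdh5, Tek, Tie1 and Cldn5 at 0, and to 13.9 to 21.2 CPM in ESCs, with Cdh5, Kdr, Emcn, Tie1 and Cldn5 at 0. Neither coreceptor gene, nor Tgfb1, passed the filter on low counts, and none of the 3 was tested.

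Among the antagonists, Fst kept a level in reprogramming cells much closer to MEFs than did the activin gene Inhba. Fst (chromosome 13, 114452290 to 114458951, minus strand) had 105, 100.4 and 153 CPM in MEFs. The 4 control means were 53.0 ± 4.88, 64.7 ± 16.6, 49.6 ± 8.15 and 58.1 ± 7.78 CPM by day, from day 3 to day 10 (SD, n = 3 each). In +Sm3CA cells they were 59.6 ± 17.0, 51.5 ± 4.77 and 51.2 ± 5.84 CPM on days 3, 6 and 8 and 23.9 ± 6.06 CPM on day 10, and ESCs held 3.78, 3.43 and 0 CPM. Only the day 10 group of +Sm3CA lay apart from the other 7 reprogramming groups, which overlapped. As a share of the MEF mean, Fst was at 44.4% in Cont day 3, 48.7% in Cont day 10 and 20.0% in +Sm3CA day 10. Bambi encodes a receptor-like protein without a kinase domain that damps signalling at the membrane. It had 10.3, 10.0 and 12.5 CPM in MEFs, means of 1.10 ± 1.91 to 3.53 ± 3.18 CPM in reprogramming cells and 3.11 ± 2.11 CPM in ESCs. In the order of means, neighbouring groups other than MEFs overlapped in Bambi, with at most 12 reads in a library outside MEFs.

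**Figure D2:**
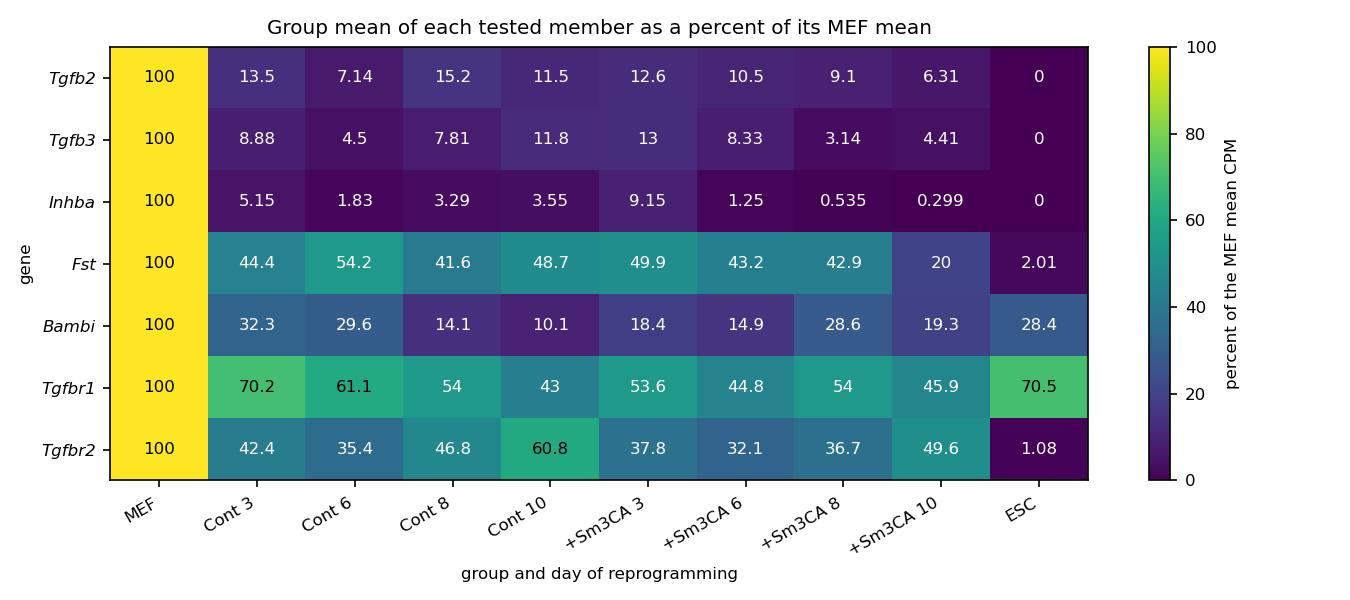
Group mean CPM of each gene tested against MEFs as a percent of its MEF mean (colour and printed value), with genes in rows and groups in columns, the day following the group name. Inhba, Tgfb2 and Tgfb3 stand at 15.2% or less in every reprogramming group, Fst between 41.6% and 54.2% except for 20.0% in +Sm3CA day 10, and Tgfbr1 between 43.0% and 70.5% in all groups but MEFs.

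The first question was how +Sm3CA cells differed from control cells on each day. The test was edgeR's quasi-likelihood F-test in a fit of the 24 reprogramming libraries, with Benjamini-Hochberg adjustment over 10237 genes and a threshold of 0.05, and 6 of the 10 genes passed its filter on low counts (Tgfb2, Tgfb3, Inhba, Tgfbr1, Tgfbr2 and Fst). On day 3 none of the 6 was called, while 0.0195% of all genes tested were, and on day 6 none was called against 0.00977%. The count at an unadjusted p under 0.05 and that of the DESeq2 Wald test were also 0 on both days. On day 8 only Inhba was called, against a background of 1.04%. On day 10 Inhba and Fst were called, both lower in +Sm3CA, against a background of 3.58%. The median log2 fold change of the 6 genes was 0.04, −0.23, −0.52 and −1.09 on days 3, 6, 8 and 10, and that of all genes was between −0.01 and 0.01 on each day.

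Inhba, the activin subunit gene, was not called on day 3 (log2 fold change 0.86, SE 0.47, edgeR adjusted p = 0.962) or on day 6 (−0.79, SE 0.66, edgeR adjusted p = 0.9996). On day 8 it fell by 2.58 on the log2 scale in +Sm3CA relative to control (SE 0.64, edgeR adjusted p = 0.0356), and each +Sm3CA library lay below each control library. That call was lost without replicate 1, 2 or 3 of Cont day 8 (−2.51, −2.75 and −2.46) or without replicate 2 of +Sm3CA day 8 (−1.96), and also under the DESeq2 Wald test (−2.62) and in a fit of the 6 compared libraries (−2.59). On day 10 Inhba fell by 3.59 (SE 0.83, edgeR adjusted p = 0.0071), again without overlap between the groups. By summed reads it was 13.2-fold lower in +Sm3CA, with a 95% counting interval of 4.90 to 50.0, from 4 reads against 61. The day 10 call was lost without replicate 3 of Cont (−2.81) or without replicate 2 or 3 of +Sm3CA (−3.32 and −3.44), and it held without replicate 1 of +Sm3CA (−4.03), so that the direction was the same whichever library was left out on either day.

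Fst, which encodes the antagonist of activin, had 56.3, 66.7 and 51.5 CPM in Cont day 10 and 24.4, 29.6 and 17.5 CPM in +Sm3CA day 10. It fell by 1.29 on the log2 scale (SE 0.25, edgeR adjusted p = 0.00105), the groups did not overlap, and the call held whichever library was left out (−1.46 to −1.09). On days 3, 6 and 8 its log2 fold changes were 0.15, −0.31 and 0.04 (SE 0.22 each), and the groups overlapped. Tgfb3 had log2 fold changes of −1.35 on day 8 and −1.50 on day 10 (SE 0.62 and 0.64), which were not called (edgeR adjusted p = 0.276 and 0.225). Tgfb2 had −0.69 and −0.90 on these days (SE 0.43 and 0.51), without a call. The receptor genes Tgfbr1 and Tgfbr2 had log2 fold changes of −0.45 to 0.07 and −0.35 to −0.15 over the 4 days, with SE of 0.41 to 0.48 and 0.30 to 0.32, and their groups overlapped on every day.

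**Figure D3:**
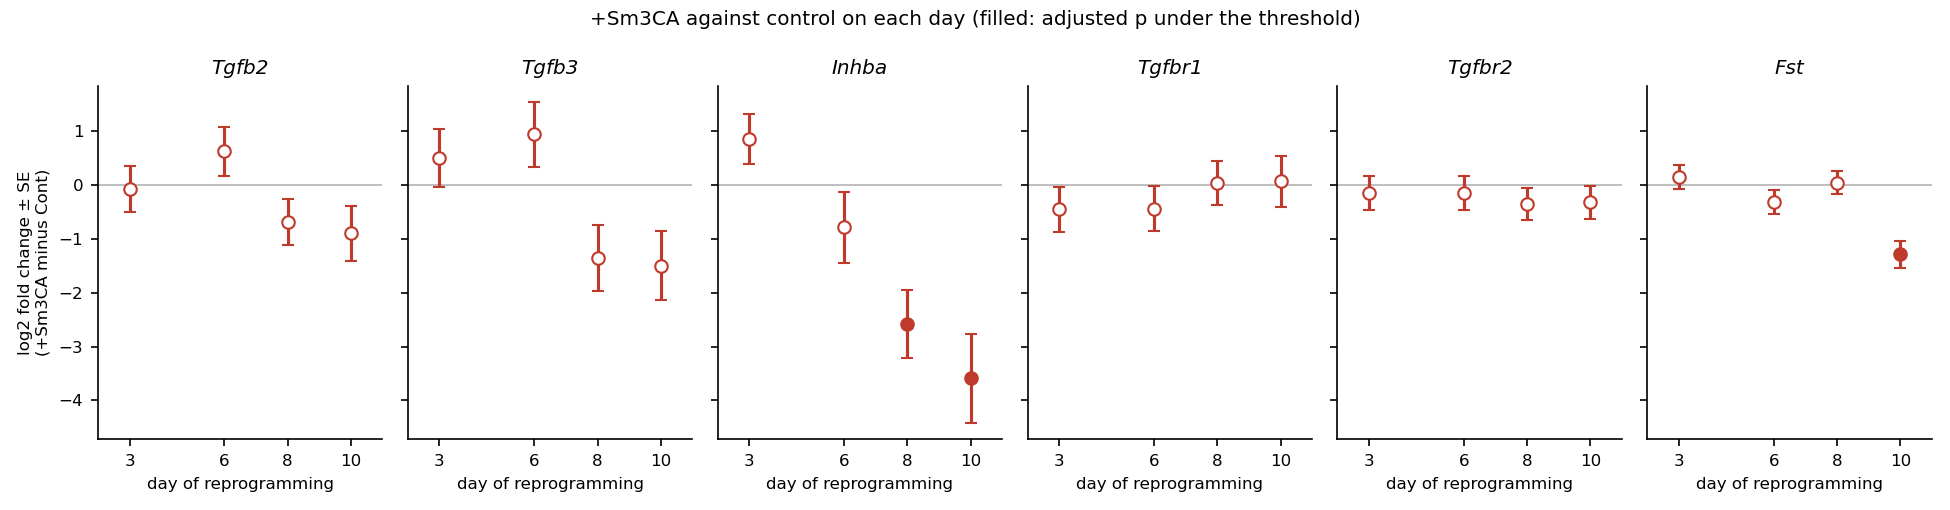
Log2 fold change of +Sm3CA against control with its standard error (y) on days 3, 6, 8 and 10 (x) for the 6 genes tested, with filled points where the edgeR adjusted p was under 0.05. Inhba is filled on day 8 at −2.58 and on day 10 at −3.59, Fst on day 10 at −1.29, and no other point is filled.

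The ranges of some summed marker lists did not overlap between +Sm3CA and control on days 8 and 10, nor did those of some lists on days without a called member. The sums were not tested. With 3 libraries against 3, ranges can also part by chance, and the share of all genes without overlap was not computed. On day 10 the 5 smooth muscle genes (Acta2, Tagln, Myh11, Cnn1 and Des) summed to 578 to 709 CPM in control and 129 to 171 CPM in +Sm3CA libraries, with Des at 0 in +Sm3CA. The 8 pluripotency genes summed to 252 to 629 CPM in control and 670 to 1516 CPM in +Sm3CA, and the 6 epithelial genes (Cdh1, Epcam, Krt8, Krt18, Cldn4 and Krt17) to 1002 to 1117 and 772 to 897 CPM, with none of either list at 0. These 3 lists did not overlap between the groups on day 10. The 12 fibroblast genes, none of them at 0, summed to 915 to 1894 CPM in control and 897 to 1131 CPM in +Sm3CA, and the 6 macrophage genes with a row to 397 to 1675 and 574 to 1042 CPM, so those ranges overlapped. On day 8 the smooth muscle genes summed to 364 to 749 CPM in control and 168 to 248 CPM in +Sm3CA, with Myh11 at 0 in +Sm3CA. The pluripotency genes summed to 35.6 to 44.1 and 54.1 to 69.0 CPM on that day, and the oligodendrocyte and Schwann cell genes to 134 to 1088 and 5.32 to 24.7 CPM. These 3 lists were without overlap on day 8, whereas the fibroblast, epithelial and macrophage lists overlapped. On days 3 and 6, when none of the 6 genes tested was called, some lists were without overlap too. The epithelial genes summed to 151 to 192 CPM in control and 205 to 318 CPM in +Sm3CA on day 3, the opposite direction to day 10. On day 6 the macrophage genes summed to 968 to 1316 CPM in control and 399 to 681 CPM in +Sm3CA. The 7 endothelial markers summed to 1.93 to 2.81 and 4.64 to 9.59 CPM on that day. The part of these cell types in the results for Inhba and Fst was not tested.

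The next comparison asked whether the difference between +Sm3CA and control on day 10 differed from that on day 3, which is the interaction term of the fit above. Of the 6 genes tested, Inhba and Fst were called, against 1.01% of all genes. For Inhba the difference moved by −4.45 on the log2 scale (SE 0.96, edgeR adjusted p = 0.0122), from 0.86 on day 3 to −3.59 on day 10. The call was lost without replicate 1 of Cont day 3 (−4.18), replicate 3 of Cont day 10 (−3.67), or replicate 2 or 3 of +Sm3CA day 10 (−4.18 and −4.31), and held without replicate 1 of +Sm3CA day 10 (−4.90). For Fst the difference moved by −1.44 (SE 0.33, edgeR adjusted p = 0.0203). This call was lost without replicate 1 of Cont day 3 (−1.46), replicate 2 of Cont day 10 (−1.31), replicate 3 of +Sm3CA day 3 (−1.20) or replicate 3 of +Sm3CA day 10 (−1.25), and held without replicate 1 of +Sm3CA day 10 (−1.43). Tgfb3 had −1.998 (SE 0.84) and was not called (edgeR adjusted p = 0.302).

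Within each series, day 10 was compared with day 3. In control cells none of the 6 genes was called in either direction, although 25.3% of all genes were, and their log2 fold changes ran from −0.72 (Tgfbr1, SE 0.44) to 0.54 (Tgfbr2, SE 0.30). At an unadjusted p under 0.05 the count was also 0, and the DESeq2 Wald test called 0. In +Sm3CA cells 3 of the 6 were called, all lower on day 10, against 33.7% of all genes in either direction. Inhba fell by 4.89 (SE 0.75, edgeR adjusted p = 3.26e-06), or 31.8-fold by summed reads with a counting interval of 12.2 to 118. Fst fell by 1.30 (SE 0.24, edgeR adjusted p = 7.25e-05). Without replicate 1 of +Sm3CA day 10 both were still called, at −5.36 for Inhba and −1.32 for Fst. Tgfb3 fell by 1.59 (SE 0.63, edgeR adjusted p = 0.0475), from 7.30, 6.74 and 15.5 CPM on day 3 to 7.51, 0.740 and 1.75 CPM on day 10, with 1 day 10 library inside the day 3 range. The replicates of a series are paired over days, and with the replicate number as a block Tgfb3 was no longer called (−1.54, edgeR adjusted p = 0.0706, with 0.00581 to 0.240 over all alternatives). Its call was also lost without replicate 3 of +Sm3CA day 3 (−1.14) or replicate 2 or 3 of +Sm3CA day 10 (−1.07 and −1.32), whereas without replicate 1 of +Sm3CA day 10 the value was −2.93 and 4 genes were called.

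**Figure D4:**
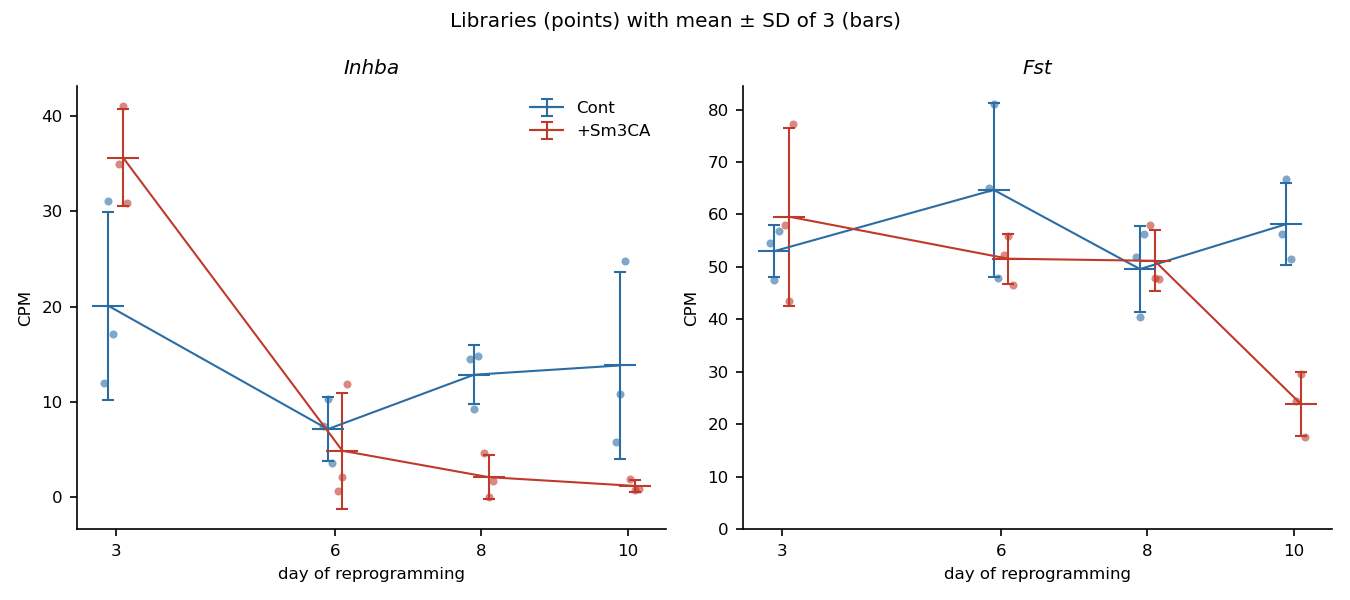
CPM (y) of Inhba and Fst on days 3, 6, 8 and 10 (x) in control (blue) and +Sm3CA (red) cells, with the 3 libraries as points and the mean ± SD as bars. Inhba declines in +Sm3CA from a mean of 35.6 on day 3 to 1.17 on day 10 while control means stay between 7.13 and 20.1, and Fst in +Sm3CA drops to 23.9 on day 10.

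The course from MEFs to ESCs was followed in a fit of all 30 libraries and 10979 genes, in which Bambi also passed the filter, making 7 genes tested. These comparisons share MEF or ESC libraries and are given side by side. MEFs and Cont day 3 differ in genotype, medium, sorting, infection and doxycycline, and these cannot be told apart here. In Cont day 3 against MEFs 5 of the 7 genes were called, all lower, against 43.4% of all genes in either direction. Inhba fell by 4.32 (SE 0.40, edgeR adjusted p = 1.10e-11), Tgfb3 by 3.46 (SE 0.44), Tgfb2 by 2.92 (SE 0.37), Tgfbr2 by 1.23 (SE 0.32) and Fst by 1.17 (SE 0.25), each also without any 1 library. Bambi was not called, at −1.58 (SE 0.70, edgeR adjusted p = 0.0656), although its 3 control libraries lay below the 3 of MEFs. Tgfbr1 had −0.47 (SE 0.41). In the same comparison the fibroblast genes went from 2791 to 3800 summed CPM in MEFs to 676 to 975 in Cont day 3, and the smooth muscle genes from 14599 to 21194 to 524 to 1006, with Myh11 at 0 in Cont day 3. Their part in the fall of these genes was not tested.

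ESCs and Cont day 10 differ in doxycycline, vitamin C and infection as well as in cell type, and ESCs and MEFs also in genotype and medium. These differences cannot be told apart here. In ESCs against Cont day 10, 5 of 7 genes were called lower, against 51.8% of all genes in either direction. The median of all genes was −0.15 on the log2 scale in this comparison, and the called genes lay far below it. Inhba, Tgfb3 and Tgfb2 had no read in ESCs, so Inhba was at least 18.0-fold, Tgfb3 at least 10.9-fold and Tgfb2 at least 12.1-fold lower. Tgfbr2 was 58.9-fold lower by summed reads, from 2 reads against 133, with a counting interval of 16.0 to 491, and Fst fell by 4.52 (SE 0.41, edgeR adjusted p = 2.17e-12). Bambi had a log2 fold change of 1.61 (SE 1.01) and Tgfbr1 of 0.69 (SE 0.47), without a call. In ESCs against MEFs 6 of 7 genes were called lower, against 59.6% of all genes. Inhba was at least 481-fold lower, Tgfb2 at least 108-fold and Tgfb3 at least 94.0-fold, Tgfbr2 95.9-fold (interval 26.3 to 797), and Fst 49.3-fold (25.8 to 108). Bambi fell by 1.75 (SE 0.74, edgeR adjusted p = 0.0398), a call that was lost without replicate 1, 2 or 3 of MEFs (−1.82, −1.83 and −1.64) or replicate 2 or 3 of ESCs (−1.79 and −1.32). Tgfbr1, with 20.3 ± 6.18 CPM in MEFs and 14.3 ± 7.08 CPM in ESCs, had −0.52 (SE 0.43, edgeR adjusted p = 0.302).

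A list of 36 other genes of the pathway was read by role in the same fits, with 22 of them tested among the reprogramming libraries and 26 with MEFs and ESCs. In +Sm3CA against control the only gene of the list called on days 3, 6 and 8 was Smad3 itself, which was higher. On day 10 Smad3 was not called (log2 fold change 0.997, SE 0.36, edgeR adjusted p = 0.1198). The call of Smad3 on day 6 (2.02) was lost without replicate 1 or 3 of Cont day 6 (1.80 and 1.99) or replicate 2 of +Sm3CA day 6 (1.63). On day 10, 2 of 22 were called, both lower, against 3.58% of all genes in either direction, and the median log2 fold change of the 22 was −0.17. Thbs1, which encodes the latent TGF-β activator thrombospondin-1, fell by 2.10 (SE 0.30, edgeR adjusted p = 1.45e-05), with 449 ± 198 CPM in control and 106 ± 18.7 CPM in +Sm3CA (SD, n = 3). It was called whichever library was left out (−2.41 to −1.87), replicate 1 of +Sm3CA day 10 (−2.05) included. Pmepa1, a TGF-β-induced inhibitor of SMAD signalling, fell by 1.16 (SE 0.28, edgeR adjusted p = 0.0105), with 51.7 ± 15.6 and 23.1 ± 7.68 CPM. Its call was lost without replicate 2 of Cont day 10 (−0.88) or replicate 3 of +Sm3CA day 10 (−0.93), and held without replicate 1 of +Sm3CA day 10 (−1.12). In control cells from day 3 to day 10, 5 of 22 were called higher and 0 lower, or 22.7% against 25.3% of all genes in either direction, among them the activin βB gene Inhbb (1.72 ± 1.52 to 6.50 ± 2.27 CPM) and the latent TGF-β binding protein gene Ltbp2 (2.46 ± 1.21 to 14.7 ± 6.33 CPM). The call of Inhbb in control cells was lost without any 1 of 5 of the 6 libraries (1.59 to 2.15, all but replicate 2 of Cont day 3) and with the replicate block (1.98). In +Sm3CA cells 3 were higher (Inhbb, Smad2 and Tgif1) and 4 lower (Thbs1, Fstl3, Smad3 and Pmepa1), or 31.8% against 33.7% of all genes. Both shares lay near the background. With a library left out 2 to 6 genes were called in control cells and 4 to 7 in +Sm3CA cells. In +Sm3CA cells the call of Fstl3 was lost without replicate 3 of day 3 or any 1 library of day 10, replicate 1 (−1.56) included. That of Inhbb was lost without replicate 2 or 3 of day 3 or replicate 3 of day 10. That of Tgif1 was lost without replicate 1 of day 3. Those of Smad2, Smad3 and Pmepa1 held whichever library was left out. In the interaction 2 of the 22 genes were called, Thbs1 and Smad3, against 1.01% of all genes. For Smad3, whose counts include the vector, the difference moved by −2.54 (SE 0.51, edgeR adjusted p = 0.00585). That call was lost without replicate 3 of Cont day 10. Thbs1 rose by 1.00 (SE 0.28) in control cells from day 3 to day 10 and fell by 0.95 (SE 0.30) in +Sm3CA. Its interaction was −1.96 (SE 0.41, edgeR adjusted p = 0.00902). The rise in control cells was no longer called without replicate 1 of Cont day 3 or replicate 2 or 3 of Cont day 10 (0.84, 0.76 and 0.81). The fall in +Sm3CA was no longer called without replicate 3 of day 3 or of day 10 (−0.73 and −0.86). The interaction of Thbs1 was lost without replicate 1 of Cont day 3 or replicate 2 of Cont day 10 (−1.80 and −1.72), and held without replicate 1 of +Sm3CA day 10 (−1.91).

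From MEFs to Cont day 3, 2 of 26 genes of the list were called higher and 14 lower, or 61.5% against 43.4% of all genes in either direction. All 3 activators and convertases tested, Thbs1, Furin and Itgav, were lower, with Thbs1 going from 3429 ± 482 to 228 ± 46.3 CPM, and so were 4 of the 7 other ligand and latent binding protein genes. Genes that restrain the pathway were lower too. These were 5 of the 8 inhibitors inside the cell that were tested (Smad7, Ski, Smurf2, Pmepa1 and Tgif1) and the antagonist gene Fstl3. The call of Ski was lost without replicate 3 of MEFs. Dcn, which encodes the TGF-β-binding matrix protein decorin and also belongs to the fibroblast markers, rose from 37.0 ± 22.6 to 392 ± 79.7 CPM. Acvr2b, a type II activin receptor gene, had no read in MEFs, 5.35 ± 2.70 CPM in Cont day 3 and 15.7 ± 1.69 CPM in ESCs. In ESCs against Cont day 10, 4 genes of the list were called higher and 14 lower, or 69.2% against 51.8% of all genes. In ESCs against MEFs 5 were higher and 16 lower, or 80.8% against 59.6%. Nodal, which encodes the ligand of pluripotent cells, had no read in MEFs or on days 3 to 8 of either series, 1.29 ± 1.61 CPM in Cont day 10, 2.29 ± 1.07 CPM in +Sm3CA day 10 and 38.3 ± 9.84 CPM in ESCs. Smad2 had 35.0 ± 3.82 CPM in MEFs and 27.8 ± 8.07 CPM in ESCs and was not called between them, and Smad4 was not called either. Smad3 was called lower in ESCs (7.16 ± 2.96 CPM) than in MEFs (19.9 ± 5.84 CPM), by 1.56 (SE 0.43, edgeR adjusted p = 0.00172). It was also called lower in Cont day 3 than in MEFs (−1.38, SE 0.40, edgeR adjusted p = 0.00422). Smad4 was called lower in ESCs than in Cont day 10 (−0.65). That call was lost without replicate 1 of Cont day 10 or replicate 1 or 3 of ESCs. ESCs had transcripts of Tgfbr1, Smad2, Smad4, Acvr2b and Nodal, and 2 reads or fewer per library of Tgfbr2. The other receptor genes Acvr1b, Acvr1c and Acvrl1 had no read in ESCs, at most 25 reads over any group, and were not tested. Acvr1 (0.912 ± 0.946 CPM in ESCs) and Acvr2a (4.96 ± 1.67 CPM) were called lower in ESCs than in Cont day 10. The call of Acvr2a was lost without replicate 3 of Cont day 10 or replicate 1 of ESCs.

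The genes whose group means over the 10 groups were most like those of each member are given as a description, with Pearson's r of mean log2 CPM over 10 groups that share libraries and scaling. For Tgfb2 they were Mmp14, Acta2 and Crim1 (r = 0.993, 0.989 and 0.985), and for Tgfb3 Dnaja4, Tagln and Aebp1 (0.991, 0.988 and 0.982). Inhba was closest to Gpc4, Selm and Mob3a (0.986, 0.984 and 0.983), and Fst to Ankrd44, 1700047I17Rik2_loc2 and Fbn1 (0.988, 0.987 and 0.986). For Tgfbr2 they were Anxa1, Sfxn3 and Fndc3b (0.992, 0.990 and 0.988), for Tgfbr1 Simc1, Setd3 and Cryl1 (0.991, 0.940 and 0.939), and for Bambi Coch, Fkbp9 and Tnik (0.927, 0.927 and 0.925). Acta2 and Tagln, which encode smooth muscle actin and transgelin, are among the smooth muscle markers used above, and Fbn1 is among the fibroblast markers.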

How the data were processed

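Expression was measured by STRT RNA-seq in MEFs, ESCs and control (Cont) and +Sm3CA reprogramming cells on days 3, 6, 8 and 10, as 10 groups of 3 replicates. The values deposited by the authors are raw counts of reads for each gene in each well, made with the automated STRT pipeline, without normalization. The submitters' processing notes name Bowtie 0.12.9, DESeq2 1.6.3 and mm10. Wells of a replicate were summed, no well was left out, and no pair of replicates had identical counts. The 30 libraries held 1008596 to 2296059 reads, and 3 reads over a group were taken as the limit that a count of 0 allows.

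Counts were tested with edgeR 4.0.16 in R 4.3.3 (TMM, filterByExpr, glmQLFit and glmQLFTest, Benjamini-Hochberg over all genes tested, threshold 0.05), in a fit of the 24 reprogramming libraries (10237 genes) or of all 30 (10979 genes). Interval bounds of folds by summed reads are exact at 95% for independent counts and leave out the spread between libraries. Alternatives were DESeq2 1.42.0 size factors, its Wald test, no filter on low counts, fits of the compared libraries only, a replicate block and leaving out each library, and for the pathway genes these were added after the data were seen. Gene positions are from the GENCODE annotation of GRCm38 and upstream sequences from RefSeq on GRCm38.p6. Python 3.11.15, pandas 2.3.3 and matplotlib 3.10.9 made the tables and figures.

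The design pairs replicate numbers over days within a series and states no pairing between series. Deviations of same-numbered libraries from their group means correlated with r = −0.18 to 0.11 over 8610 or 8751 genes. Within a series the mean r of same-numbered libraries was 0.003 in Cont and 0.020 in +Sm3CA. The genes named are the 10 members, Smad3, a list of 36 pathway genes by role where called or needed, and for each member tested the 3 genes of highest Pearson r. Members and lists were chosen with earlier results of these data known.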

Additional observations from a re-analysis of the deposited data

Results flagged for a closer look

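The interaction term of the edgeR fit asks whether the difference between +Sm3CA and control changed between day 3 and day 10. It was called for 2 of the 6 genes tested, against 1.01% of all genes. For Inhba it moved by −4.45 on the log2 scale (edgeR adjusted p = 0.0122), and for Fst by −1.44 (edgeR adjusted p = 0.0203). Each of these calls was lost without any 1 of 4 libraries, as given with the result, and the direction was the same in all of those fits.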

How the results depend on the processing

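The count of genes called in +Sm3CA against control on day 8 went from 1 to 0 under the DESeq2 Wald test and in a fit of the compared libraries only, and was 0 to 1 with a library left out. On day 10 it was 1 with the compared libraries only, where Inhba did not pass the filter, and 1 to 2 with a library left out, and the interaction count was 0 to 2 with a library left out. Without the filter on low counts 1 gene, Tgfbr3, was called in control day 10 against day 3, where the count was otherwise 0. In ESCs against Cont day 10 the count was 2 with the compared libraries only, because Fst and Tgfbr2 were the only ones of the 5 called genes that then passed the filter. The replicate block changed the call of Tgfb3 in +Sm3CA day 10 against day 3 (−1.54) and that of Bambi in Cont day 3 against MEFs (edgeR adjusted p = 0.0374, from 0.0656, with 0.00984 to 0.228 over all alternatives), and no other call of the ligand, receptor and antagonist genes tested. Among the pathway genes it ended the call of Inhbb in control day 10 against day 3 (1.98). It also ended those of Fstl3 in ESCs against Cont day 10 (−1.87) and Ppm1a in ESCs against MEFs (0.58). In comparisons with MEFs or ESCs the block joined libraries by replicate number only, a pairing that the design does not state. The changes for Bambi, Fstl3 and Ppm1a are therefore no check on pairing. Some log2 fold changes of +Sm3CA against control that were not called changed sign with a library left out. Fst ran from −0.067 to 0.327 on day 3 and from −0.078 to 0.143 on day 8. On day 3 Tgfb2 ran from −0.334 to 0.217 and Tgfbr2 from −0.492 to 0.096. Tgfbr1 ran from −0.095 to 0.249 on day 8 and from −0.214 to 0.414 on day 10. So did uncalled values of Tgfb2 in control day 10 against day 3, Tgfbr1 in +Sm3CA day 10 against day 3 and Tgfbr2 in the interaction. DESeq2 size factors changed none of the 10 counts by more than 1.5 times. Inhba in +Sm3CA on day 10 rested on 2 reads or fewer per library, which limits the precision of its folds.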
